A study of Arabidopsis thaliana with 5 samples.

Results

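Transcript levels of 10 auxin response genes, 8 Aux/IAA genes (IAA1, IAA2, IAA3, IAA5, IAA7, IAA14, IAA19 and IAA29) and 2 GH3 genes (GH3.3 and GH3.5), were followed in sorted leaf epidermal cells of Arabidopsis thaliana. The genes were chosen by gene identifier, and all 10 were found among the 24200 genes of the deposited table. The tested plants carried the hdl mutation (2 libraries; the growth protocol names the allele hdl-1), a lesion in the gene HOMEODOMAIN-LIKE, and were compared with WT plants (3 libraries). Both genotypes carried AtML1pro:RCI2A-mCherry, a red membrane reporter driven by the promoter of the epidermal gene ATML1. Seedlings were 9 days post germination, grown on 1/2 MS medium in long days, and protoplasts were sorted for mCherry at about 20000 cells per sample, so any cell in which the promoter was active could enter the sample. No treatment with auxin was part of the design. Batch 1 is given for each of the 5 libraries. Whether replicates are separate plants is not stated, and a p-value here therefore weighs a difference only against the sample-to-sample spread, part of which may be technical.

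Auxin acts by bringing Aux/IAA proteins to the TIR1/AFB receptors, F-box proteins that mark them for degradation. Aux/IAA proteins otherwise bind AUXIN RESPONSE FACTORS (ARFs) and recruit TOPLESS-type corepressors to auxin-regulated promoters. Many Aux/IAA genes and several GH3 genes are themselves induced by auxin, so the pathway feeds back on itself. Group II GH3 enzymes join auxin to amino acids, which stores the hormone or commits it to breakdown. In leaves the pathway is known for its part in cell expansion, vein patterning and organ growth.

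The libraries held 18316092 and 19741801 recovered reads in hdl, against 15418154 to 22838239 in WT. ATML1 was present in every library, at 3562 and 3522 normalized counts in hdl and 2549 to 4183 in WT. Markers of other cell types were also present and moved with genotype. The summed level of 7 vascular markers was 23992 and 22078 normalized counts in hdl, against 44472 to 74303 in WT, with 0 of them called higher and 4 lower. The sum of 5 mesophyll markers was 704271 and 675848 in hdl, against 351625 to 477008 in WT, with 2 called higher and 0 lower. Of 5 epidermal markers 3 were called higher and 0 lower, and of 3 guard cell markers 0 were higher and 1 lower. Over all genes tested 8.21% were called higher and 4.50% lower. No marker in these lists was at 0 in any library. The part of these shifts in the results below was not tested. In sorted bulk cells, fewer cells of a type and less RNA per cell cannot be told apart. hdl replicate 1 stood apart: 239 genes lay below 5% of their lowest value elsewhere, against 11 in WT replicate 2 and 0 in each other library. None of the 10 genes was among these 239 or 11. Of the 239, 238 were annotated, and 81.1% of those shared bases with an opposite-strand gene, against 29.9% of the other genes. For the 11 genes of WT replicate 2 the share was 18.2%, against 29.1%. Why hdl replicate 1 differed at such genes was not tested.

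Values are DESeq2-normalized counts as deposited. The test was limma on log2(value + 1), run over the 20391 genes that reached 10 normalized counts in 2 or more libraries. A gene was called at a Benjamini-Hochberg adjusted p under 0.05, and log2 changes are hdl minus WT with the SE of that fit. Of the 10 genes, 9 passed the filter, and every one of these passed it in both genotypes; IAA5 did not.

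IAA3 and IAA14 rose in hdl and GH3.3 fell; the other 6 tested genes did not pass. IAA3 and IAA14 were 3.91-fold and 4.93-fold higher in hdl by group means, whereas WT had 3.43 times the GH3.3 level of hdl. Of the 9 genes tested, 2 were called higher, against 8.21% of all genes tested, and 1 lower, against 4.50%. In either direction 12.7% of all genes were called. The 9 genes had a median log2 change of 0.35, against -0.05 for all genes tested. The groups did not overlap for 7 of the 9, 5 with hdl above WT and 2 below, and this held for 53.6% of all genes tested, 26.7% above and 26.9% below. On the recovered reads edgeR also called 2 of the 9 higher and 1 lower, against 7.97% and 4.08% of all genes (12.0% in either direction). DESeq2 called 3 higher and 1 lower, against 12.8% and 10.6% (23.4% in either direction). All 3 calls were lost without hdl replicate 1, when limma called 0 of 20217 genes higher and 0 lower, although 2030 higher and 1976 lower genes then had an unadjusted p under 0.05.

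**Figure D1:**
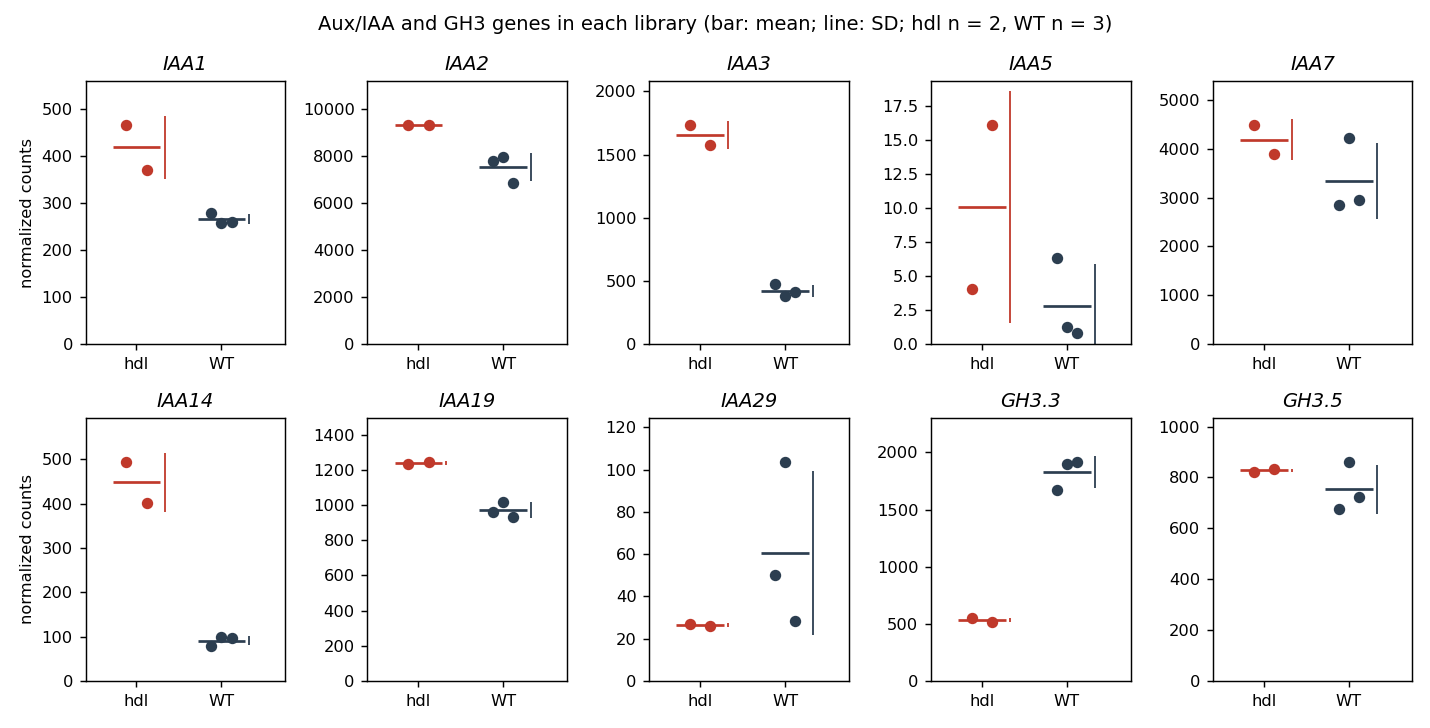
Normalized counts of the 10 genes in each library, hdl on the left (2 libraries) and WT on the right (3 libraries); points are libraries, horizontal bars are means and vertical lines are SDs, cut at 0 for IAA5. IAA3 and IAA14 lie far above WT in both hdl libraries, GH3.3 lies far below, and IAA5, IAA7 and GH3.5 overlap.

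IAA3, also called SHORT HYPOCOTYL 2, encodes a repressor known from its control of root meristem size and seedling light responses. The gene (AT1G04240, TAIR10.1 chromosome 1, 1128149 to 1129689, minus strand) had 1735 and 1576 normalized counts in hdl, against 475.2, 381.7 and 412.0 in WT. Both hdl libraries lay more than 3 times above every WT library. Means were 1656 ± 112 for hdl (SD, n = 2) and 423 ± 47.7 for WT (SD, n = 3), a log2 change of 1.97 ± 0.16 (limma adjusted p = 0.00435). Without hdl replicate 1 the change was 1.90 and the adjusted p 0.0729. The last 640 bases of the gene overlap AT1G04230 on the opposite strand, and the strand setting of the counting is not given in the sources used here, so reads from the overlap may come from either gene. AT1G04230 itself had 167.3 and 211.2 normalized counts in hdl and 147.4, 184.5 and 115.9 in WT, and did not pass (adjusted p = 0.438).

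IAA14, or SOLITARY-ROOT, encodes a repressor best known for blocking lateral root initiation when it is stabilised. The gene (AT4G14550, chromosome 4, 8347822 to 8350263, minus strand) had 495.1 and 401.5 normalized counts in hdl, against 78.5, 98.6 and 95.9 in WT. The groups were far apart, and the WT libraries rested on 74 to 115 reads. Means were 448 ± 66.2 for hdl (SD, n = 2) and 91.0 ± 10.9 for WT (SD, n = 3), a log2 change of 2.29 ± 0.25 (limma adjusted p = 0.00662). Without hdl replicate 1 the change was 2.14 and the adjusted p 0.0787. No annotated gene overlaps IAA14 on the opposite strand.

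GH3.3 encodes an enzyme that conjugates auxin to amino acids and is among the strongly auxin-induced GH3 genes. The gene (AT2G23170, chromosome 2, 9863855 to 9866562, minus strand) had 547.7 and 517.6 normalized counts in hdl, against 1668, 1897 and 1920 in WT. Both hdl libraries lay far below the lowest WT value. Means were 533 ± 21.3 for hdl (SD, n = 2) and 1828 ± 140 for WT (SD, n = 3), a log2 change of -1.77 ± 0.14 (limma adjusted p = 0.00435). Without hdl replicate 1 the change was -1.82 and the adjusted p 0.0709. GH3.5, whose product acts on auxin and on salicylic acid in vitro (AT4G27260, chromosome 4, 13653579 to 13656285), had 822.9 and 831.4 normalized counts in hdl, against 676.8, 862.1 and 723.9 in WT. Its groups overlapped, and its log2 change of 0.14 (95% interval -0.26 to 0.54) did not pass (adjusted p = 0.585). Within each library GH3.3 had 0.666 and 0.623 times the counts of GH3.5 in hdl, against 2.46, 2.20 and 2.65 times in WT. This ratio does not depend on how libraries are scaled.

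Promoter windows are shown for the called genes and for 3 that were not called, drawn from the Aux/IAA and GH3 families. The windows of IAA2, IAA5, IAA7 and IAA29 are not printed, and their motifs are given below. Each window is the 250 bases before the annotated gene start in the RefSeq annotation of TAIR10.1, 5′ to 3′ on the gene's strand. Capitals mark TGTCTC and TGTCGG, 2 forms of the element bound by ARFs, and CACGTG, the G-box bound by bHLH and bZIP factors, each on either strand. The windows are IAA3 (chr1:1129690-1129939, minus strand), IAA14 (chr4:8350264-8350513, minus strand), GH3.3 (chr2:9866563-9866812, minus strand), GH3.5 (chr4:13653329-13653578, plus strand), IAA1 (chr4:8360746-8360995, plus strand) and IAA19 (chr3:5263751-5264000, plus strand).
IAA3: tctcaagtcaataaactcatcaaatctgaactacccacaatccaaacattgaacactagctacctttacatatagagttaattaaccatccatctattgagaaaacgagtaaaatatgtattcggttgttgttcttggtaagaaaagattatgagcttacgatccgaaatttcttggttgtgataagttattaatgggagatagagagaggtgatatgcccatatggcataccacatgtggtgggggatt
IAA14: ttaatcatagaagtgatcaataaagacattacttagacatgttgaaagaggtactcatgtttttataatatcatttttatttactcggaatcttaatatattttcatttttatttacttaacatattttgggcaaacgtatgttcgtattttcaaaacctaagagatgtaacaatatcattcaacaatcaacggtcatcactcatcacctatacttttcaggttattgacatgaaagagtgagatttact
GH3.3: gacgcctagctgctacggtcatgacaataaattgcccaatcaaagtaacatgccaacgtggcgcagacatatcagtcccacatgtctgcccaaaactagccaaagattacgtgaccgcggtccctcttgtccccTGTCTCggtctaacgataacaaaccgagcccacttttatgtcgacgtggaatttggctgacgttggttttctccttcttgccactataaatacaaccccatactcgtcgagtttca
GH3.5: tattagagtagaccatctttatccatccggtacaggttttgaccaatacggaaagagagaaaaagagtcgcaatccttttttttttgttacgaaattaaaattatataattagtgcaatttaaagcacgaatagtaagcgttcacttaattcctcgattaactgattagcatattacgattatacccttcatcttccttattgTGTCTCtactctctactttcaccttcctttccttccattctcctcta
IAA1: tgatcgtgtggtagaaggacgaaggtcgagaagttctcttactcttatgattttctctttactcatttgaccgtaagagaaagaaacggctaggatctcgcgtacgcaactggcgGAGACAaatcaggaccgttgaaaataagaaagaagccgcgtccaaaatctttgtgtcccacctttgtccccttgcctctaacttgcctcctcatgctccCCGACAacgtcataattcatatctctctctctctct
IAA19: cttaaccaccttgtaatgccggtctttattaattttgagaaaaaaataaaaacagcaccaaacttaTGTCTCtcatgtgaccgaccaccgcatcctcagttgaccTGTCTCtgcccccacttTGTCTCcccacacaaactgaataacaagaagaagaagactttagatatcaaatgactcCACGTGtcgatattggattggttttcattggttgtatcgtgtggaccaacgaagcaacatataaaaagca

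TGTCTC occurred in 11.1% of 24107 such windows of genes in the table, TGTCGG in 4.43%, either of them in 15.1% and CACGTG in 6.95%. Among the 10 genes, IAA1, IAA5, IAA19, GH3.3 and GH3.5 held TGTCTC or TGTCGG. GH3.3 and GH3.5 held 1 TGTCTC each, first base 116 and 47 bases before the gene start. IAA19 held 3 TGTCTC and 1 CACGTG, and IAA1 held 1 TGTCTC and 1 TGTCGG. IAA5 held 1 TGTCTC and 2 TGTCGG, and IAA7 held CACGTG alone. IAA3 and IAA14, which rose, held none of the 3 motifs in this window, and neither did IAA2 and IAA29, which were not called. The windows do not reach further upstream, and a match is a run of letters, not a measured binding site.

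IAA1 encodes a short-lived auxin-induced repressor, and gain-of-function alleles confer auxin resistance. The gene (AT4G14560, chromosome 4, 8360996 to 8362033, plus strand) had 466.8 and 370.6 normalized counts in hdl, against 279.0, 258.8 and 261.0 in WT. The groups did not overlap, but the log2 change of 0.64 ± 0.20 did not pass with limma (adjusted p = 0.0809). It passed with DESeq2 on the recovered reads (adjusted p = 0.0293) and with limma without WT replicate 2 (adjusted p = 0.0459). Without WT replicate 2, limma called 3574 of 20108 genes higher, against 1674 of 20391 with all libraries.

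IAA2, a gene whose promoter is widely used as an auxin reporter (AT3G23030, chromosome 3, 8180646 to 8182095), had 9294 and 9314 normalized counts in hdl, against 7784, 7953 and 6828 in WT. IAA19, or MASSUGU 2, acts with ARF7 in tropic bending and hypocotyl growth (AT3G15540, chromosome 3, 5264001 to 5265695), and had 1234 and 1248 in hdl, against 963.2, 1020 and 934.0 in WT. In both genes the hdl libraries lay above all WT libraries by a small margin. IAA2 had a log2 change of 0.31 (95% interval -0.03 to 0.65, adjusted p = 0.182) and IAA19 of 0.35 (95% interval 0.03 to 0.67, adjusted p = 0.128), so neither passed. Both passed without WT replicate 2, at limma adjusted p-values of 0.0312 and 0.0244, with changes of 0.35 and 0.39. In that fit 3574 of 20108 genes were called higher, against 1674 of 20391 with all libraries.

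IAA7, or AUXIN RESISTANT 2, encodes a repressor whose stabilised form dwarfs the plant. The gene (AT3G23050, chromosome 3, 8194606 to 8197161) had 4488 and 3889 normalized counts in hdl, against 2840, 4227 and 2956 in WT. The groups overlapped because WT replicate 2 was high. Its log2 change of 0.35 (95% interval -0.16 to 0.85) did not pass (adjusted p = 0.294), but with WT replicate 2 left out the change reached 0.53 and passed (adjusted p = 0.00991).

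With the libraries scaled to equal totals, the median change of all genes was -0.37 instead of -0.05, and 994 genes were called higher and 2553 lower instead of 1674 and 917. The changes of IAA1, IAA7 and IAA19 then shrank to 0.32, 0.02 and 0.03, and those of IAA2 and GH3.5 turned to -0.01 and -0.18. IAA3, IAA14 and GH3.3 were still called under that scaling, at 1.65, 1.97 and -2.10.

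IAA29, a gene known to respond to shade and warmth through PHYTOCHROME-INTERACTING FACTORS, was low. The gene (AT4G32280, chromosome 4, 15583332 to 15584903) had 27.0 and 25.9 normalized counts in hdl, against 49.9, 103.8 and 28.4 in WT. Both hdl libraries lay just below the lowest WT library, and WT replicate 2 was well above the others. Its log2 change of -0.97 (95% interval -2.49 to 0.55) did not pass (adjusted p = 0.323) and was -0.49 without WT replicate 2. IAA5, an auxin-induced gene, was close to the detection limit at 4.05 and 16.1 normalized counts in hdl, against 6.36, 1.28 and 0.834 in WT, or 3 and 13 reads in hdl against 6, 1 and 1 in WT. The gene (AT1G15580, chromosome 1, 5365512 to 5366497) was not tested with the filter in place. Its last 48 bases overlap AT1G15570 on the opposite strand, which had 128.2 and 200.1 in hdl, against 358.5, 425.3 and 351.9 in WT. At this depth no difference in IAA5 is read from these values.

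Per kb of the longest annotated transcript, the 10 genes spanned a wide range of levels. In hdl the order was IAA2 (6851 ± 10.8 normalized counts per kb), IAA7 (2715 ± 275), IAA19 (1229 ± 9.30), IAA3 (1222 ± 82.8), IAA1 (443 ± 71.9), GH3.5 (351 ± 2.53), IAA14 (260 ± 38.4), GH3.3 (252 ± 10.1), IAA29 (21.1 ± 0.587) and IAA5 (12.9 ± 10.9; SD, n = 2 each). In WT it was IAA2 (5539 ± 447), IAA7 (2165 ± 499), IAA19 (963 ± 43.1), GH3.3 (863 ± 65.9), GH3.5 (320 ± 40.9), IAA3 (312 ± 35.2), IAA1 (282 ± 11.7), IAA14 (52.7 ± 6.33), IAA29 (48.5 ± 31.0) and IAA5 (3.62 ± 3.93; SD, n = 3 each). Library values of neighbours overlapped between IAA19 and IAA3 and between IAA14 and GH3.3 in hdl. In WT they overlapped between GH3.5 and IAA3, between IAA3 and IAA1, and between IAA14 and IAA29. GH3.3 was therefore the fourth of the 10 in WT and shared the seventh and the eighth place with IAA14 in hdl. IAA14 has 4 annotated transcripts of 659 to 1726 bases, so its place depends on the length used: with the shortest it was at 680 per kb in hdl and 138 in WT.

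Of the 10 genes, 5 lie beside another Aux/IAA gene, each pair in divergent orientation with no protein-coding gene annotated between. IAA3 is followed after 6388 bases by IAA17 (AT1G04250, chromosome 1, 1136078 to 1138663), known as AUXIN RESISTANT 3, which was not among the 10 genes. IAA17 had 4741 and 4183 normalized counts in hdl, against 1183, 295.9 and 861.5 in WT, and it rose by 2.73 ± 0.55 on the log2 scale (limma adjusted p = 0.0297). Both hdl libraries lay above 3 times the highest WT library. Leaving out hdl replicate 1, hdl replicate 2 or WT replicate 3 ended the call, at changes of 2.64, 2.82 and 2.91 and adjusted p-values of 0.145, 0.0776 and 0.0891. IAA14 and IAA1 are 10732 bases apart, and within a library IAA14 had 1.06 and 1.08 times the counts of IAA1 in hdl, against 0.281, 0.381 and 0.367 times in WT. IAA2 and IAA7 are 12510 bases apart, and their ratio overlapped between genotypes, at 2.07 and 2.40 in hdl and 2.74, 1.88 and 2.31 in WT. IAA3 had 0.366 and 0.377 times the counts of IAA17 in hdl, against 0.402, 1.29 and 0.478 times in WT, where replicate 2 stood apart. Log2 changes within a pair were thus 0.31 and 0.35 at IAA2 and IAA7, where neither gene was called. At IAA14 and IAA1 they were 2.29 and 0.64, with IAA14 alone called, and at IAA3 and IAA17 both were called higher. The difference between the changes within a pair was not tested.

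**Figure D2:**
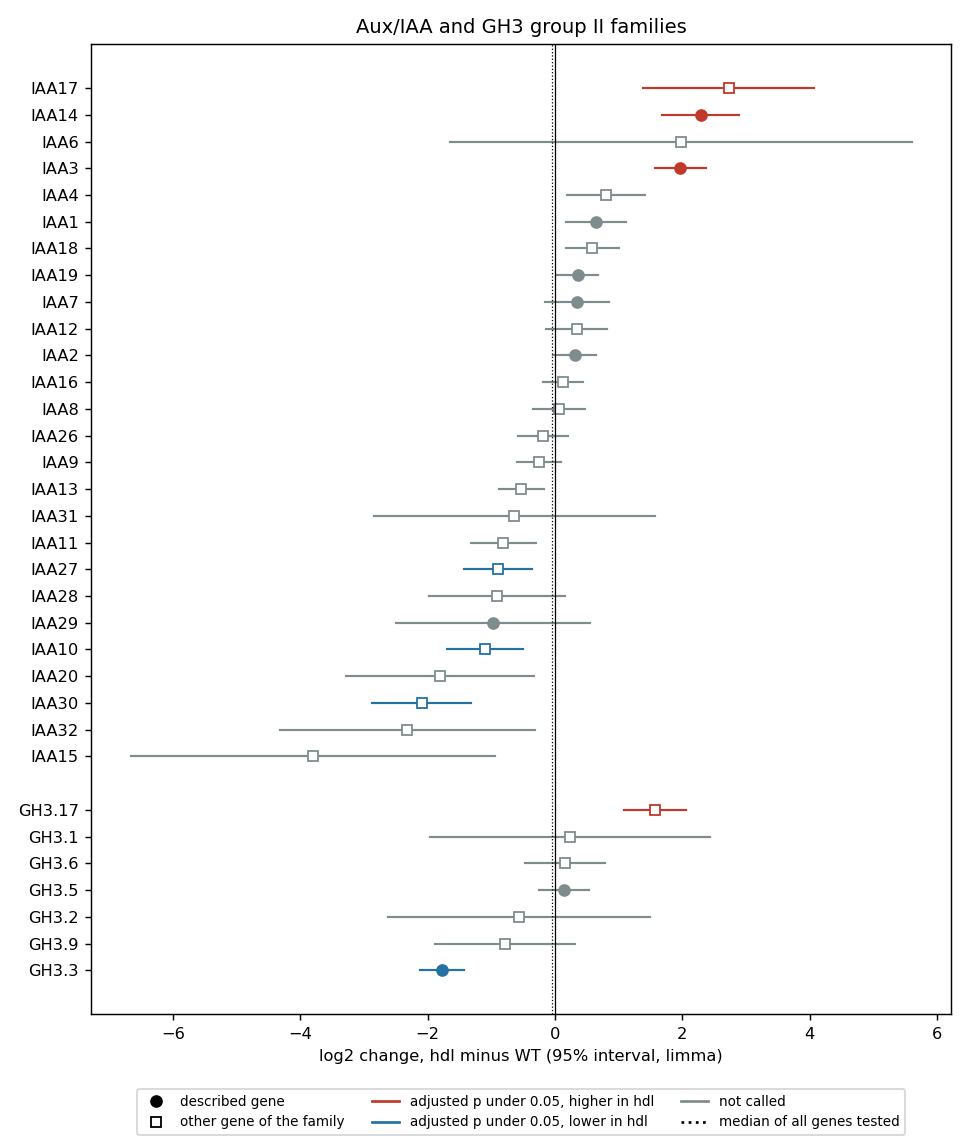
Log2 change (hdl minus WT, x axis) with 95% interval for each tested gene of the Aux/IAA and group II GH3 families; filled circles are the described genes, open squares the other genes, red and blue mark calls at adjusted p under 0.05 and the dotted line is the median of all genes tested. Among the Aux/IAA genes, IAA17, IAA14 and IAA3 are the called genes on the right and IAA27, IAA10 and IAA30 those on the left, while GH3.17 and GH3.3 are the called GH3 genes on either side.

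The whole Aux/IAA family has 29 genes in the table, of which 26 were tested, with 3 called higher and 3 lower in hdl (background 8.21% and 4.50%). Its median log2 change was -0.06, against -0.05 for all genes. Of the 19 tested Aux/IAA genes outside the described set, limma called 1 higher (IAA17) and 3 lower, edgeR 1 and 2, and DESeq2 3 and 6. Over all genes edgeR called 7.97% higher and 4.08% lower, and DESeq2 12.8% and 10.6%. Of these 19, 3 did not reach the filter in hdl alone and were tested because of their level in WT, so neither their median of -0.53 nor that of the family is read as a shift. IAA30, whose product lacks the degron through which auxin acts, had 43.2 and 34.6 normalized counts in hdl, against 167.6, 140.9 and 202.7 in WT, a log2 change of -2.10 (limma adjusted p = 0.0146). IAA10 had 91.7 and 85.2 in hdl, against 187.8, 207.5 and 176.8 in WT, a change of -1.10 (limma adjusted p = 0.0387). IAA27 had 207.8 and 274.2 in hdl, against 454.0, 500.9 and 384.5 in WT, a change of -0.89 (limma adjusted p = 0.0496). In these 3 genes no library of hdl reached the lowest WT value. All 3 calls were lost without hdl replicate 1 (adjusted p = 0.0813, 0.154 and 0.253), without WT replicate 1 (0.0617, 0.113 and 0.135) and without WT replicate 3 (0.0772, 0.119 and 0.109). IAA10 and IAA27 were also lost without hdl replicate 2 (0.116 and 0.0754), and both overlap a gene on the opposite strand. IAA27 was lost with edgeR as well (adjusted p = 0.0511), and both were lost with no filter on low values (0.0551 for IAA10 and 0.055 for IAA27).

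The family's counts can be set against each other within a library, which removes the scaling between libraries. The 29 genes together made up 0.159 and 0.154% of the library total in hdl, against 0.156, 0.155 and 0.154% in WT. IAA2 made up the largest share in every library, 23.6 and 24.7% in hdl and 24.9, 25.9 and 23.2% in WT. IAA3 made up 4.41 and 4.18% in hdl, against 1.52, 1.24 and 1.40% in WT, and IAA14 1.26 and 1.07% in hdl, against 0.251, 0.321 and 0.326% in WT. IAA17 made up 12.1 and 11.1% in hdl, against 3.78, 0.964 and 2.93% in WT. IAA1 made up 1.19 and 0.984% in hdl, against 0.891, 0.843 and 0.887% in WT. For IAA3, IAA14, IAA17 and IAA1 the shares in hdl lay above all WT shares. Those of IAA16 (16.0 and 16.4% in hdl, 18.7, 19.7 and 18.1% in WT) and IAA9 (6.84 and 7.77%, against 11.6, 9.81 and 11.6%) lay below. The share of IAA19 overlapped, at 3.14 and 3.31% in hdl and 3.08, 3.32 and 3.18% in WT. Shares of 1 total are tied, so a larger share of some genes lowers the others.

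**Figure D3:**
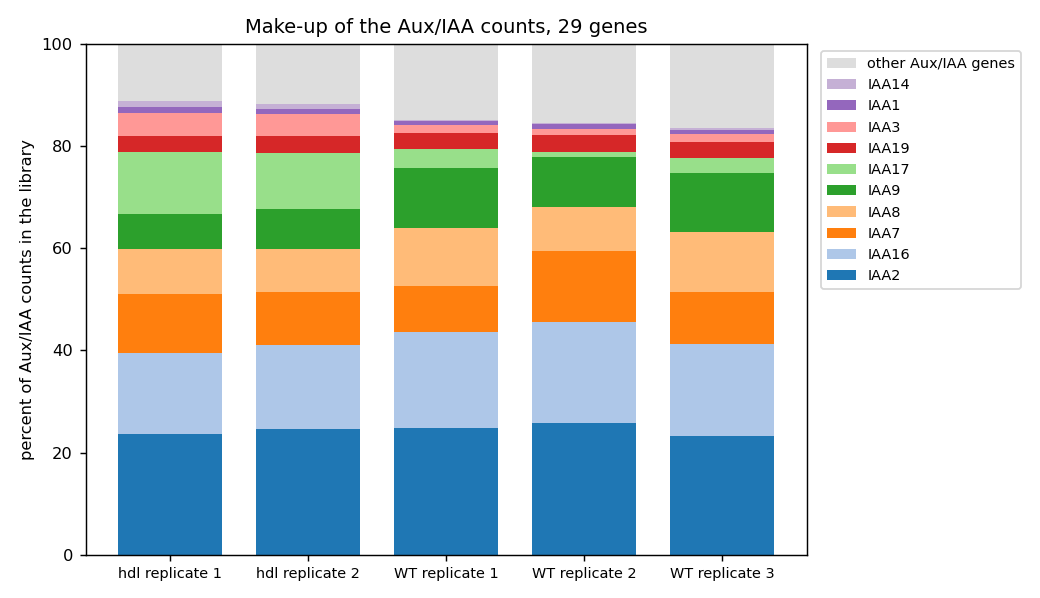
Share of each gene in the summed counts of the 29 Aux/IAA genes (y axis, percent) in the 2 hdl and 3 WT libraries; 10 of the genes have a colour each and the other 19 are summed in grey. IAA17, IAA3 and IAA14, and IAA1 by a small margin, take wider bands in both hdl libraries than in any WT library. IAA16 and IAA9 take narrower ones, while IAA2 stays between 23.2 and 25.9%.

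Of the 5 tested group II GH3 genes other than the described pair, limma, edgeR and DESeq2 each called 1 higher and 0 lower, as did an unadjusted p under 0.05. Of all genes limma called 8.21% higher and 4.50% lower, edgeR 7.97% and 4.08%, and DESeq2 12.8% and 10.6%. At an unadjusted p under 0.05, 3385 of all 20391 genes were higher and 3148 lower. GH3.17, which conjugates auxin to glutamate, had 450.6 and 431.1 normalized counts in hdl, against 139.0, 149.9 and 156.8 in WT, a log2 change of 1.56 ± 0.20 (limma adjusted p = 0.0096). The groups were far apart, and the call was lost without hdl replicate 1 (1.53, adjusted p = 0.0944). GH3.1, GH3.2, GH3.6 and GH3.9 did not pass, with changes between -0.79 and 0.24.

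Lists of the other steps of the pathway were drawn up by gene family and function. Together with the family members above, 80 auxin genes outside the 10 were tested, with 5 called higher and 6 lower by limma, against 8.21% and 4.50% of all genes. DESeq2 called 10 and 12 of them, against 12.8% and 10.6% of all genes. Of the 80, 7 did not reach the filter in WT alone and 9 did not in hdl alone. SAUR genes, small auxin-induced genes that promote cell expansion, were near the detection limit: 11 of 18 passed the filter, and limma called 0 higher and 0 lower. At an unadjusted p under 0.05, 2 were higher and 0 lower, edgeR called 0 and DESeq2 called 2 higher. Over all 20391 genes, 3385 were higher and 3148 lower at an unadjusted p under 0.05, and DESeq2 called 12.8% higher, so the SAUR counts lie near the background. Of the 11, 6 did not reach the filter in WT alone, so their level in hdl helped bring them into the test, which favours values above WT; no shift of the list is read from them. By the mean over all libraries SAUR62 and SAUR16 were the most abundant. SAUR62 was among those 6, and its mean in WT (11.4) was below that of SAUR50 (30.9). It had 70.2 and 61.8 normalized counts in hdl, against 20.2, 8.97 and 5 in WT (log2 change 2.63, adjusted p = 0.0626), and it passed with DESeq2 (adjusted p = 0.00863) and with a pseudocount of 8 (adjusted p = 0.0388). SAUR16 had 67.5 and 102.5 in hdl, against 37.1, 32.0 and 4.17 in WT (2.17, adjusted p = 0.175). Genes of this family are near-identical in places, and how reads shared between them were counted is not given in the sources used here.

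Of 6 receptor genes limma called 0 higher and 0 lower, with 1 higher and 1 lower at an unadjusted p under 0.05 and 0 called by edgeR and DESeq2. Over all 20391 genes, 3385 were higher and 3148 lower at an unadjusted p under 0.05. edgeR called 7.97% of all genes higher and 4.08% lower, and DESeq2 12.8% and 10.6%. TIR1, the founding receptor, had 2427 and 2225 normalized counts in hdl, against 3073, 4218 and 2904 in WT (log2 change -0.53, limma adjusted p = 0.123). It passed after scaling to equal totals (-0.85, limma adjusted p = 0.0322) and without WT replicate 2 (-0.36, limma adjusted p = 0.0254). Without WT replicate 2, 2295 of 20108 genes were called lower, against 917 of 20391 with all libraries. AFB4 had 191.6 normalized counts in hdl replicate 1 and 17593 in hdl replicate 2, against 21532, 26393 and 21899 in WT. It overlaps AT4G24380 on the opposite strand and is 1 of the 239 genes far below the other libraries in hdl replicate 1. Its change of -3.65 did not pass (adjusted p = 0.193); it was -0.40 without hdl replicate 1 and -6.91 without hdl replicate 2 (adjusted p = 0.000409). Of 15 ARF genes limma, edgeR and DESeq2 each called 0 higher and 1 lower (limma background 8.21% and 4.50%), with 3 higher and 1 lower by limma at an unadjusted p under 0.05. This was ARF5, or MONOPTEROS, an activator needed for embryo axis and vein patterning, with 899.8 and 890.7 in hdl, against 2339, 2183 and 2399 in WT (-1.36 ± 0.13, limma adjusted p = 0.00504). The hdl libraries lay below the WT libraries by a wide margin, and the call was lost without hdl replicate 1 (-1.37, adjusted p = 0.0754). ARF5 overlaps AT1G19860 on the opposite strand, which had 522.1 and 528.7 in hdl and 371.3, 319.0 and 446.2 in WT. Of the 7 vascular markers 4 were called lower in hdl (SEOR1, APL, XCP2 and ATHB15), against 4.50% of all genes. SUC2 (0.39), XCP1 (-1.19) and ATHB8 (-0.78) did not pass. The part of the vascular markers in the ARF5 result was not tested. Of 5 TOPLESS-type corepressor genes limma called 0 higher and 0 lower, with 2 higher and 1 lower at an unadjusted p under 0.05 and 0 called by edgeR and DESeq2. TPL, the founding member, had 3768 and 3648 in hdl, against 3220, 3222 and 3382 in WT (0.18, adjusted p = 0.341), and its change turned to -0.14 with libraries scaled to equal totals. TPR4 had 2610 and 2119 in hdl, against 1832, 1472 and 1900 in WT (0.45, adjusted p = 0.141).

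Among 10 tested genes of auxin synthesis limma called 1 higher and 0 lower, against 8.21% and 4.50% of all genes. At an unadjusted p under 0.05, 2 were higher and 4 lower, against 3385 and 3148 of all 20391 genes. edgeR called 1 higher and 0 lower, against 7.97% and 4.08% of all genes. DESeq2 called 2 higher and 3 lower, against 12.8% and 10.6%. Of the 10, 4 did not reach the filter in hdl alone. YUC5, a flavin monooxygenase that makes auxin from indole-3-pyruvate, had 145.7 and 174.2 normalized counts in hdl, against 33.9, 58.9 and 20.8 in WT (2.16 ± 0.51, limma adjusted p = 0.0426). The groups did not overlap, but the call was lost without hdl replicate 1, hdl replicate 2, WT replicate 1 or WT replicate 3, at adjusted p-values of 0.168, 0.14, 0.111 and 0.105. Scaling to equal totals (0.0516) and testing with no filter on low values (0.055) ended the call as well. YUC7 and YUC9, of the same enzyme family, were among those 4 and near 0 in hdl. YUC7 had 0 and 1.24 normalized counts in hdl, against 29.7, 65.3 and 10.0 in WT (adjusted p = 0.0581). YUC9 had 1.35 and 0 in hdl, against 25.5, 20.5 and 13.3 in WT (adjusted p = 0.0622). Neither passed with limma, and YUC7 overlaps AT2G33220 on the opposite strand. Their level in WT brought them into the test, which favours values below WT, so no fall is read from them. Among 9 tested genes of auxin inactivation and of release from conjugates, limma called 2 higher and 2 lower, against 8.21% and 4.50% of all genes. UGT74D1, a glucosyltransferase that acts on auxin, had 1682 and 1717 in hdl, against 639.6, 411.2 and 619.6 in WT (1.64, limma adjusted p = 0.0111). DAO2, a relative of the auxin oxidase DAO1, had 422.3 and 370.6 in hdl, against 180.3, 87.1 and 136.8 in WT (1.61, limma adjusted p = 0.034). ILR1, which releases auxin from conjugates, had 280.6 and 318.7 in hdl, against 497.5, 493.2 and 499.5 in WT (-0.73, limma adjusted p = 0.0403). IAMT1, which methylates auxin, had 265.8 and 290.3 in hdl, against 711.8, 431.7 and 711.4 in WT (-1.11, limma adjusted p = 0.0455). These 4 calls were lost without hdl replicate 1 (adjusted p = 0.0939, 0.173, 0.231 and 0.205) and without WT replicate 3 (0.0502, 0.108, 0.135 and 0.148). Without hdl replicate 2, DAO2, ILR1 and IAMT1 were lost (0.0877, 0.103 and 0.117), and without WT replicate 1, ILR1 and IAMT1 (0.116 and 0.129). UGT74D1 overlaps AT2G31751 on the opposite strand, which had 117.4 and 727.6 in hdl and 273.7, 123.0 and 241.8 in WT.

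**Figure D4:**
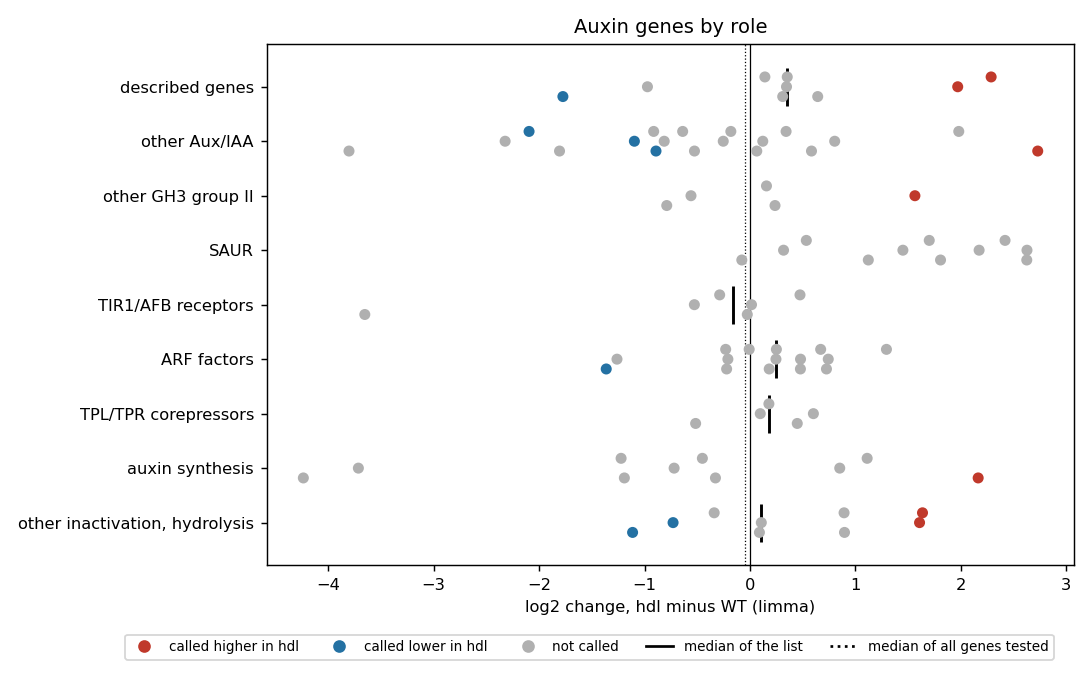
Log2 change (hdl minus WT, x axis) of each tested auxin gene, grouped by role down the page; red and blue points passed the test, grey points did not, black ticks are medians, drawn for lists in which every tested gene reached the filter in both genotypes, and the dotted line is the median of all genes tested. The described genes have a median of 0.35, with IAA3 and IAA14 on the right and GH3.3 on the left.

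GH3.3 was the called gene with the smallest p among the 10. The genes with the most similar profile, by Euclidean distance in centred log2(value + 1) over the 5 libraries among 20390 other tested genes, were AT3G53100 (distance 0.0943), HSP17.4 (0.115) and TRFL8 (0.144). AT3G53100 had 371.0 and 361.9 normalized counts in hdl, against 1122, 1330 and 1243 in WT. HSP17.4, a small heat shock protein gene, had 777.1 and 722.7 in hdl, against 2459, 2645 and 2936 in WT. TRFL8 had 76.9 and 75.4 in hdl, against 242.9, 269.0 and 248.5 in WT. These genes were picked as the closest of 20390 over 5 libraries, so their likeness to GH3.3 follows from the choice. Shared regulation with GH3.3 was not tested. AT3G53100 overlaps AT3G53090 on the opposite strand, and HSP17.4 overlaps AT3G07365 and AT3G46220; no overlap is annotated for TRFL8.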

How the data were processed

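RNA was measured in leaf epidermal protoplasts sorted from hdl (2 libraries) and WT (3 libraries) seedlings; the labels' protocols give TruSeq libraries and an input of 10 to 20 ng RNA. The values used are a signal the authors deposited for 24200 genes: counts divided by 1 size factor per library, normalized with DESeq2 as the name of the table states. The submitters' processing notes list the build TAIR10 and, without roles, Bowtie2 2.5.0 (an aligner), Trimmomatic 0.33 (a read trimmer), SAMtools 1.16.1, FastQC 0.11.9, DESeq2 and deepTools. For the read counter and its strand setting, nothing is given in the sources used here. A second deposited table holds raw counts and was not used, since none of the genes described here is in it.

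limma 3.58.1 in R 4.3.3 was run as stated with the results, with an intensity trend and no covariate. Dividing a library by its smallest step gave whole reads for 100% of values (tolerance 0.01), taking 1 step as 1 read. edgeR 4.0.16 called 1625 genes higher and 832 lower on these reads, and DESeq2 1.42.0 called 2619 and 2152. The model fits were tested on simulated data. These had the same spread setting for every gene and no library like hdl replicate 1, so they do not show how the fits behave here. Coordinates, transcript lengths and promoter sequences come from NCBI RefSeq's TAIR10.1 annotation and genome, matched by gene identifier (24108 of 24200 found). Of the exonic 50-base words of the 10 genes, 0% occur again in the nuclear genome.

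Genes named are the 10 genes, their neighbouring Aux/IAA genes, and per list up to 4 called genes by smallest p or the 2 most abundant; genes outside this rule that are given beside them (the remaining GH3 genes, SAUR50, YUC7, YUC9 and opposite-strand partners) were chosen after their values were seen. The genes, lists and tests were chosen with earlier results of these data known. Alternatives changed the tool, scaling, pseudocount, filter, threshold, libraries, replicate block, transcript length and gene set.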

Additional observations from a re-analysis of the deposited data

How the results depend on the processing

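IAA3, IAA14 and GH3.3 kept their direction and their call with edgeR, DESeq2, equal totals, both other pseudocounts and both other filters. With the replicate block their changes were 1.95, 2.33 and -1.74 with limma adjusted p-values of 0.0582, 0.0736 and 0.0596, and no call was left: of the 10 genes 0 were higher and 0 lower, of other auxin genes 0 and 0, and of all genes 0 and 0, with 2526 higher and 2003 lower at an unadjusted p under 0.05. hdl and WT share only the numbers 1 and 2, so WT replicate 3 added nothing to the changes in the block fit. That fit left little from which to estimate the spread, so the loss of calls is not read as an effect of replicate. Libraries with the same number had deviations correlated at 0.00477 and -0.0123 over 20391 genes. With 2 hdl libraries the deviations of each mirror those of the other, so these values are not separate checks. They cannot settle whether libraries with the same number were prepared together. Leaving out 1 library at a time gave 0 to 6 of the 10 genes higher and 0 to 1 lower, 0 to 15 other auxin genes higher and 0 to 14 lower, and 0 to 3574 of all genes higher and 0 to 2295 lower; the 0s came from leaving out hdl replicate 1 and the highest counts from leaving out WT replicate 2. The log2 changes then ranged from 0.48 to 0.81 for IAA1, 0.24 to 0.35 for IAA2, 1.90 to 2.06 for IAA3, 0.24 to 0.53 for IAA7, 2.14 to 2.44 for IAA14, 0.32 to 0.39 for IAA19 and -1.84 to -1.73 for GH3.3.

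DESeq2 called 2619 genes higher and 2152 lower, 10 other auxin genes higher and 12 lower, and IAA1 at 0.65. With equal totals 994 genes were higher and 2553 lower, with 14 other auxin genes lower, and IAA2 (-0.013), GH3.5 (-0.18) and TPL (-0.14) turned sign. The mean normalized total was 24548412 in hdl and 19625532 in WT, so this scaling lowered hdl values against WT. Why the totals differ was not tested. At an adjusted p under 0.1, 2623 genes were higher and 2035 lower, and 11 and 12 other auxin genes. Without genes that overlap the opposite strand, 1459 of all genes were higher and 774 lower. Of the 10 genes 1 was then lower, and 1 was higher because IAA3 is among those left out. Of other auxin genes 4 were higher and 3 lower. With the shortest transcript, levels per kb in hdl and WT were 8777 and 7096 for IAA2, 1392 and 355.7 for IAA3, 4102 and 3272 for IAA7, and 680.3 and 138.1 for IAA14, and IAA29 was at 25.3 in hdl. With 2 hdl libraries, small changes could not be resolved, and IAA5, at 1 to 13 reads, was limited by depth.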
